A study of Sus scrofa with 5 samples.

Results

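Cadherins and protocadherins are the cell surface proteins by which neurons recognise and hold on to each other, and 54 of the 30477 genes in a count table of pig dorsal root ganglion nuclei belong to the family. Members were chosen by symbol alone: CDH and CDHR genes with a number, all PCDH genes, FAT1 to FAT4, DCHS1, DCHS2 and CELSR1 to CELSR3. Of these, 51 carried the symbol in the deposited table, and FAT4, PCDH20 and PCDHAC2 were matched from Ensembl identifiers by a table of gene names. Members whose symbol no row carried, FAT3 and PCDH15 among them, were not analysed here.

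Classical cadherins bind the same or a related cadherin on the next cell through calcium-dependent extracellular repeats, and hold the actin cytoskeleton through catenins. Type II classical cadherins and the non-clustered protocadherins are known in the nervous system for being switched on in different sets of neurons, where they take part in axon sorting and in the choice of synaptic partners. FAT, DCHS and CELSR proteins are giant cadherins of planar cell polarity, and the clustered protocadherins give neurons a surface identity used in self-recognition.

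RNA of single nuclei was sequenced from dorsal root ganglia, thoracic and lumbar, taken from male pigs of the Landrace breed (5 animals, 1 untreated group). Counts are of unique molecular identifiers (UMIs), 17277376 over 2189 nuclei, with 501 to 338372 per nucleus. Lysis and clean-up followed several protocols, some selecting neuronal nuclei by NeuN antibody, and which library had which is not given. Barcode endings separated 6 libraries that nothing tied to a pig, so the table is 1 pooled sample. No test was run. The 95% intervals below reflect counting alone and leave out how pigs differ.

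The libraries differed in quality. Library 3 (805 nuclei) carried 24.3% mitochondrial UMIs and library 2 (13 nuclei) 16.2%, against 0.0709% to 4.76% in the others. Library 3 also held 0 UMIs in 906 rows where the other libraries gave an expectation of at least 20, rows that took 9.27% of those libraries' UMIs. Other libraries had 9 to 37 such rows. FAT1 and FAT4 were among those at 0 in library 3, and their values are given without it. No barcode sequence occurred in more than 1 library.

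Nuclei were clustered on variable genes with every cadherin member left out, and each of 26 clusters was placed by whichever of 8 sensory neuron genes led it, or left ungrouped where none stood 2-fold over the other nuclei of the same libraries. The groups were TRPM8 (491 nuclei, named for the cold and menthol channel), IL31RA (217, an itch cytokine receptor), GFRA2 (221, the neurturin receptor), ADCYAP1 (531, the neuropeptide PACAP), KIT (124, the stem cell factor receptor), NTRK2 (73, the BDNF receptor), NTRK3 (209, the NT-3 receptor) and PVALB (279, the calcium buffer parvalbumin). The other 44 nuclei stayed ungrouped. The first 4 lead genes were taken here to stand for unmyelinated C fibres and the last 4 for myelinated A fibres. These sides are a choice made for the comparison, and no fibre was measured. NEFH, the heavy neurofilament of myelinated neurons, stood at 5637 CPM (counts per 1000000 UMIs) in the PVALB group. It stood at 446, 1038 and 502 CPM in the KIT, NTRK2 and NTRK3 groups, against 443 to 975 CPM in the C-fibre groups. By NEFH the KIT and NTRK3 groups did not stand apart from the C-fibre groups, and the NTRK2 group stood little above the highest of them. SLC17A7, a second marker of the NTRK2 and NTRK3 groups, stood at 2.11 to 3.00 CPM in the C-fibre groups. In the KIT, NTRK2, NTRK3 and PVALB groups it stood at 9.06, 62.15, 31.1 and 69.6 CPM. RUNX3, a marker of the PVALB group, had 26.4 CPM in the NTRK3 group and 0 in the KIT group, against 0.533 to 1.06 CPM in the C-fibre groups. The KIT group also held TRPM8 at 313 CPM, below the 718 CPM of the TRPM8 group and above the 15.1 to 81.7 CPM of the other 6, and TRPM8 was the next marker of its clusters c5 and c21. With these markers at odds, the sides of the KIT and NTRK3 groups are insecure. The comparison of sides is given with and without the KIT group, and was not made without the NTRK3 group.

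Some clusters were less secure. In 5 of the grouped clusters (c12, c16, c17, c20 and c21) the lead gene was not among the 10 genes highest against the rest of the same libraries. The TRPM8 group held a shallow cluster, c0, of 303 nuclei with a median of 1443 UMIs, 300 of them from library 1. The markers of satellite glia, 5 genes, summed to 2134 CPM in the PVALB group and 1582 CPM in the TRPM8 group, against 222 to 577 CPM in the other 6. Schwann cell markers, 6 of 7 in the table, summed to 816 and 572 CPM in those groups, against 292 to 505 CPM elsewhere. All 5 and all 6 genes had UMIs in both groups, and the part of glial RNA in member levels was not tested.

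Of the 54 members, 32 had at least 50 UMIs over the table and are compared below, 18 had 1 to 49, and CDH16, CDHR4, PCDHA13 and PCDHGB1 had none. Members took 0.593% of UMIs in the KIT group, 0.537% in the TRPM8 group and 0.479% in the NTRK3 group, against 0.234% in the IL31RA group, the lowest. PCDH9 alone gave 5832 of the 10077 member UMIs in the TRPM8 group and 2347 of 6546 in the KIT group. It gave 1559 of 6649 in the IL31RA group and 20481 of 60590 over the table. The share of the TRPM8 group was thus mostly that of 1 gene. For 19 of the 32 (59.4%), the highest group stood at least 2-fold above the median of the 8 groups, where the background over 13304 genes was 41.4%. Such members peaked in the NTRK3 group (5), the TRPM8, KIT and NTRK2 groups (4 each) and the GFRA2 group (2), and in none of the IL31RA, ADCYAP1 and PVALB groups. How all genes divide over the groups in this way was not computed, so the split by group has no background. These orders are over the 8 groups. The 44 ungrouped nuclei lay above every group in 4 of the 32 members, PCDHGA4 (216 CPM, 166 to 277), CDH10 (154 CPM, 113 to 207), CELSR3 (51.5 CPM, 28.8 to 84.9) and CDH23 (20.6 CPM, 7.56 to 44.8). A single nucleus gave 42.9% of their PCDHGA4 UMIs, and of these members only PCDHGA4 had an interval that lay above the level of the highest group.

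**Figure D1:**
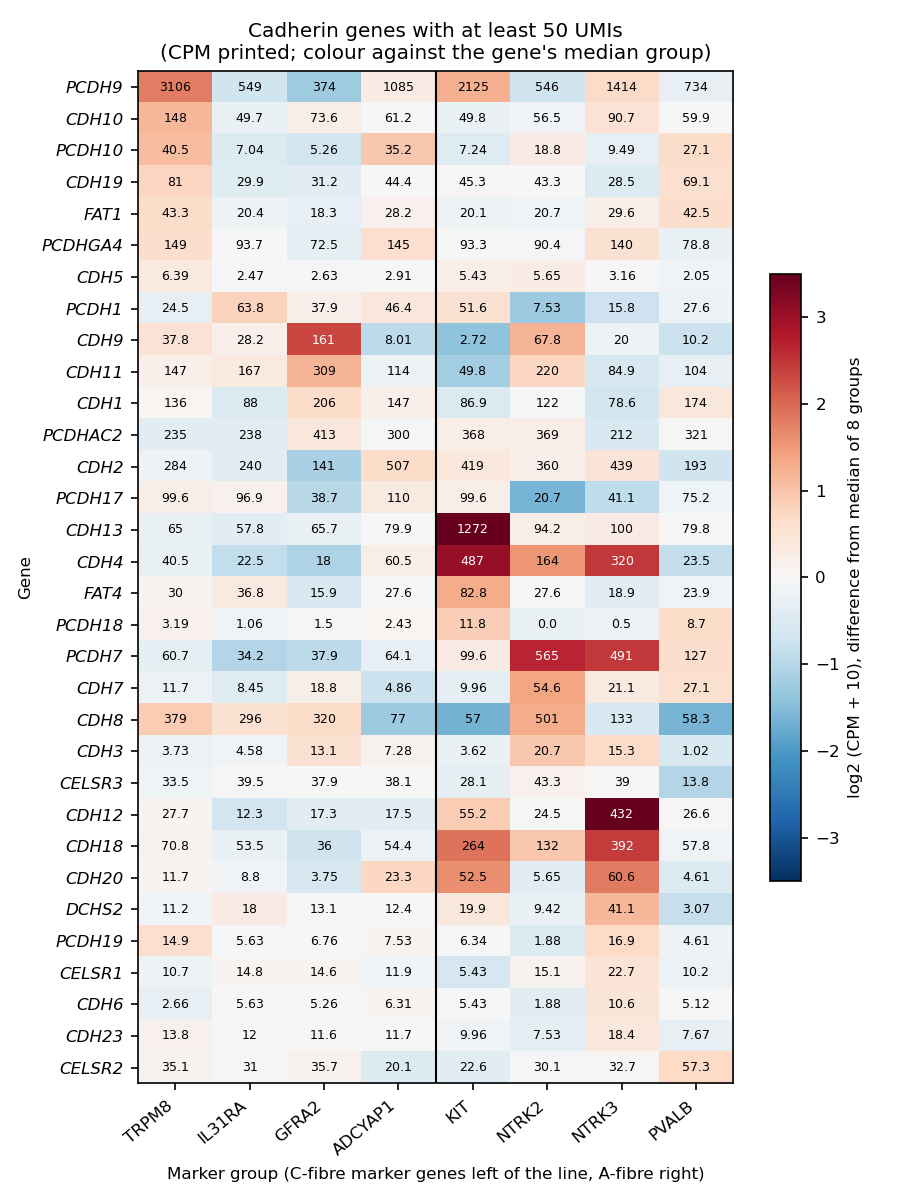
Level of the 32 members with at least 50 UMIs in the 8 marker groups. Each cell prints CPM, and colour gives log2 of CPM plus 10 minus the gene's median over groups (FAT1 and FAT4 without library 3). CDH13 is deep red in the KIT group at 1272 CPM and CDH12 in the NTRK3 group at 432 CPM.

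The C-fibre groups together were compared with the A-fibre groups together, at a threshold of 2-fold. Of the 32 members, 1 was higher in the C-fibre groups, where the background over 13254 genes was 4.18%, and 8 were lower, with a background of 7.87%. The members' median log2 ratio was -0.13, beside -0.07 over all genes. The member higher in C-fibre groups was CDH9, a type II cadherin, with 53.4 CPM against 17.7 CPM in the A-fibre groups, or 3.02-fold (2.43 to 3.78). All 5 libraries with enough nuclei had that direction, at log2 ratios of 0.80 to 1.58. With nuclei weighted equally the CDH9 log2 ratio of 1.60 was 0.77 and no member was higher. With nuclei grouped one by one by their own marker UMIs it was 0.28. That grouping kept only nuclei with UMIs of exactly 1 of the 8 lead genes, so its groups differ from the clustered ones. It gave 34 TRPM8 nuclei, 26 of them in the TRPM8 clusters, and 39 GFRA2 nuclei, 30 of them in the GFRA2 clusters. Of its 44 KIT nuclei 3 lay in the KIT clusters, and of 154 NTRK2 nuclei 41 in the NTRK2 clusters. Only its KIT and NTRK2 groups were made up mostly of other nuclei.

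CDH12 differed most, at 17.8 CPM in C-fibre groups against 172 CPM in A-fibre groups, which is 9.67-fold lower (8.31 to 11.3). CDH4 was 6.13-fold lower (5.49 to 6.84) at 38.0 against 233 CPM. PCDH7 was 5.79-fold lower (5.26 to 6.38) at 50.1 against 290 CPM. In each of these genes all 5 libraries agreed in direction. CDH13 (68.7 against 328 CPM, 4.78-fold lower) and CDH18 (52.6 against 222 CPM, 4.22-fold lower) did so too. With nuclei grouped one by one the CDH13 log2 ratio of -2.26 was -0.48, below 2-fold.

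PCDH18, CDH20 and CDH7 completed the 8 with smaller counts. PCDH18 was 2.83-fold lower (1.60 to 5.07) on 23 UMIs against 31. CDH7 was 2.40-fold lower (1.86 to 3.11) on 116 UMIs against 133. CDH20 was 2.53-fold lower (2.04 to 3.16), but library 4 went the other way at a log2 ratio of 2.07. The CDH20 log2 ratio of -1.34 was -0.93 without library 6 and -0.92 without cluster c17, so its place past 2-fold rested on each of them. It was also below 2-fold at clustering resolution 0.5 (-0.56), as the mean of ratios within libraries (-0.59) and with nuclei thinned to 1000 UMIs (-0.54).

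Leaving the KIT group out of the A-fibre side was an alternative added after seeing the data, and it ended the calls of CDH13 and PCDH18. CDH13 then stood at 68.7 CPM in C-fibre groups against 90.4 CPM, and PCDH18 had too few UMIs. CDH12 (11.3-fold), PCDH7 (6.74-fold), CDH4 (4.44-fold, 3.94 to 5.01), CDH18 (4.02-fold), CDH7 (2.76-fold) and CDH20 (2.18-fold) were still lower. CDH9 was still higher, and PCDH1 joined it at 45.1 CPM in C-fibre groups against 20.1 CPM.

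The A-fibre side did not share one profile. In the PVALB group CDH12 stood at 26.6 CPM, CDH4 at 23.5 CPM, CDH13 at 79.8 CPM and CDH18 at 57.8 CPM, each within the range of the 4 C-fibre groups. Those ranges ran from 12.3 to 27.7 CPM for CDH12, 18.0 to 60.5 for CDH4, 57.8 to 79.9 for CDH13 and 36.0 to 70.8 for CDH18. PCDH7 in the PVALB group, at 127 CPM, lay above its C-fibre range of 34.2 to 64.1 CPM.

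**Figure D2:**
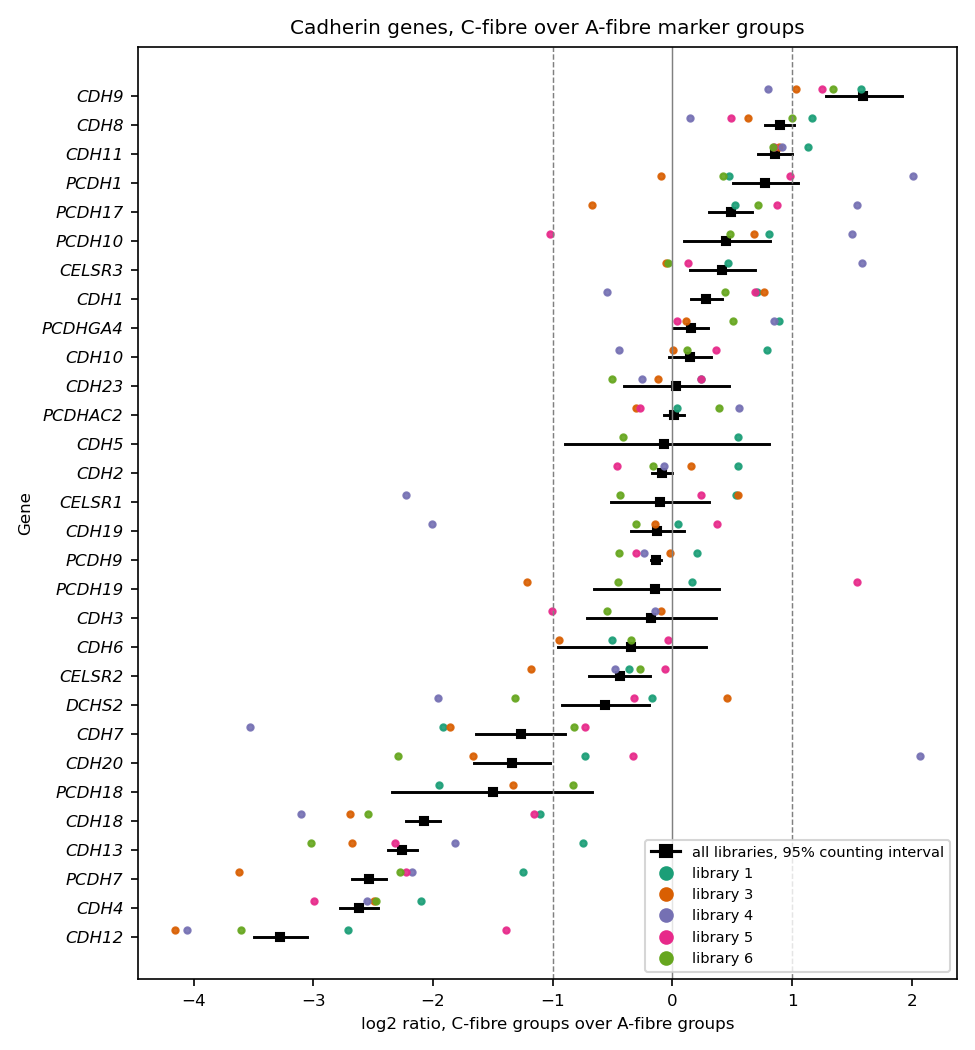
Log2 ratio of C-fibre over A-fibre groups for 30 members, without FAT1 and FAT4. Squares with lines are all libraries with the 95% counting interval, dots are single libraries with 10 or more nuclei per side, and dashed lines mark 2-fold. CDH9 lies to the right of the upper line and 8 members to the left of the lower one.

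The type I classical cadherins CDH1 (E-cadherin), CDH2 (N-cadherin), CDH3 (P-cadherin) and CDH4 (R-cadherin) had unlike patterns. CDH4, which guides axons in the developing retina and brain of mice and chicks, was a gene of the KIT, NTRK3 and NTRK2 groups. It reached 487 CPM (447 to 530) in the KIT group, 6.58-fold over the other groups (5.93 to 7.29), with 219, 266, 740 and 660 CPM in libraries 1, 3, 5 and 6. In the NTRK3 group it stood at 320 CPM, 4.35-fold over the others (3.94 to 4.81), with 30.3, 252, 553, 211 and 180 CPM in libraries 1, 3, 4, 5 and 6. The KIT libraries lay above all libraries of the 4 C-fibre groups, which reached 94.8 CPM, whereas library 1 of the NTRK3 group, with 2 UMIs, did not. Of its CDH4 UMIs 1 nucleus gave 24.1%, and without nuclei above 50000 UMIs the level was 239 CPM. The NTRK3 log2 ratio of 2.12 was 1.499 without library 4 and 2.78 without library 6. The NTRK2 group stood at 164 CPM. The ungrouped nuclei stood above it at 254 CPM (199 to 319), where 1 nucleus gave 29.7% of the UMIs.

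N-cadherin, the general neuronal classical cadherin, was found in every group. CDH2 ran from 507 CPM in the ADCYAP1 group down to 141 CPM in the GFRA2 group, and only the GFRA2 group passed 2-fold, 2.55-fold below the other groups (2.30 to 2.85). Its GFRA2 libraries held 128 to 169 CPM and its ADCYAP1 libraries 433 to 579 CPM, with no overlap. With nuclei grouped one by one the GFRA2 log2 ratio of -1.35 was -0.61. CDH1, or E-cadherin, was highest in the GFRA2 group at 206 CPM and lowest in the NTRK3 group at 78.6 CPM, and no group passed 2-fold. Its second level, 174 CPM in the PVALB group, came mostly from library 4 with 619.9 CPM, against 83.3, 49.1 and 146 CPM in libraries 1, 3 and 6. CDH3 was sparse, with 20.7 CPM in the NTRK2 group on 11 UMIs, 2.84-fold over the others (1.38 to 5.27), and its log2 ratio of 1.51 was 0.45 without library 5 and 0.05 at clustering resolution 0.5. In the NTRK3 group it had 15.3 CPM on 29 UMIs, 2.26-fold over the others (1.44 to 3.45), and that log2 ratio of 1.18 was 0.95 without library 1 and 0.58 without nuclei above 50000 UMIs. In the PVALB group CDH3 had 2 UMIs, 0.12 of the level elsewhere (0.014 to 0.44). That log2 ratio of -3.07 was -2.06 without library 1 and -2.35 without library 6.

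Several type II cadherins were high in 1 group or a pair of groups. CDH12 marked the NTRK3 group at 432 CPM (403 to 463), 19.7-fold over the others (17.3 to 22.5). Its NTRK3 libraries 1, 3, 4, 5 and 6 held 545, 551, 346, 198 and 452 CPM. The next group, KIT, had 41.9 to 99.5 CPM per library, so the groups did not overlap. In all other groups CDH12 was below 30 CPM, lowest in the IL31RA group at 12.3 CPM, where 21 of its 35 UMIs came from library 5. The IL31RA log2 ratio of -2.68 was -3.82 without that library.

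CDH18, whose gene is the neighbour of CDH12 on chromosome 16, was shared by NTRK3 and KIT. It stood at 392 CPM in the NTRK3 group, 5.48-fold over the others (4.99 to 6.02), and 264 CPM in the KIT group, 2.74-fold over the others (2.41 to 3.11). Libraries of the NTRK3 group ran from 172 to 590 CPM and those of the KIT group from 166 to 367 CPM, so these neighbours in the order were not separated. With nuclei grouped one by one the KIT log2 ratio of 1.46 was 0.47. Every library of the other groups except NTRK2 library 3 was lower than all of them, at 129 CPM or less. The NTRK2 group held 183 and 97.4 CPM in libraries 3 and 5.

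CDH9, which matches synaptic partners in the mouse hippocampus, was a gene of the GFRA2 group. It stood there at 161 CPM (147 to 177), 8.23-fold over the others (7.06 to 9.60), with 164, 187, 146 and 188 CPM in libraries 1, 3, 5 and 6. No library of another group exceeded 78.9 CPM, in the NTRK2 group. In the KIT group CDH9 had 3 UMIs, all in 1 nucleus of library 6, or 2.72 CPM and 0.061 of the level elsewhere (0.013 to 0.18). That log2 ratio of -4.04 was -3.31 without library 6, with 0 UMIs set to the floor of 3. It was -0.86 with nuclei thinned to 1000 UMIs, where the same floor applies and weighs more because fewer UMIs are left. In the ADCYAP1 group it stood at 8.01 CPM, 6.58-fold below the others.

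CDH11, like CDH9, was highest in the GFRA2 group and lowest in the KIT group, with the NTRK2 group (220 CPM) and the IL31RA group (167 CPM) next to the top. The GFRA2 group stood at 309 CPM, 2.52-fold over the others (2.32 to 2.74), with 198, 385, 301 and 398 CPM in libraries 1, 3, 5 and 6. NTRK2 library 3 (245 CPM), ADCYAP1 library 4 (227 CPM), PVALB library 4 (214 CPM) and the upper IL31RA libraries (200 and 219 CPM) overlapped with library 1 of the GFRA2 group. The KIT group stood at 49.8 CPM, 3.19-fold below the others, and with nuclei grouped one by one the log2 ratio of -1.67 was -0.49.

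CDH8, a cadherin needed in mice for synapses of cold-sensing afferents, separated the groups into a high and a low set. It was high in the NTRK2 group (501 CPM) and in the TRPM8, GFRA2 and IL31RA groups (379, 320 and 296 CPM). It was low in the NTRK3, ADCYAP1, PVALB and KIT groups (133, 77.0, 58.3 and 57.0 CPM). Beyond 2-fold it was higher in the NTRK2 group (2.62-fold, 2.30 to 2.97) and the TRPM8 group (2.11-fold, 1.94 to 2.30). TRPM8 libraries 1, 3, 5 and 6 held 178, 469, 391 and 549 CPM, and library 1, mostly the shallow cluster, was the low one. Without that cluster the group stood at 475 CPM, and in the shallow cluster alone at 229 CPM. The TRPM8 log2 ratio of 1.08 was 0.98 without library 6 and 0.04 with nuclei grouped one by one, and the NTRK2 log2 ratio of 1.39 was 0.12 at resolution 2.0. As the mean of ratios within libraries the TRPM8 value was 0.95. Only library 1 of the NTRK3 group, at 242 CPM on 16 UMIs, reached into the range of the high groups.

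Among the other type II genes, CDH10 was highest in the TRPM8 group at 148 CPM, 2.32-fold over the others (2.03 to 2.66). Its TRPM8 libraries held 103, 233, 115 and 127 CPM, and without library 3 the log2 ratio of 1.22 was 0.85, below 2-fold. With nuclei grouped one by one it was 0.14. CDH7 was highest in the NTRK2 group at 54.6 CPM, 4.09-fold over the others (2.67 to 6.03), with 70.6 and 45.8 CPM in libraries 3 and 5. Its PVALB level of 27.1 CPM, 2.08-fold over the others (1.51 to 2.83), rested on library 1, without which the log2 ratio was 0.12. CDH20 stood at 60.6 CPM in the NTRK3 group (4.10-fold) and 52.5 CPM in the KIT group (2.98-fold), and its KIT signal lay in cluster c17, described below. In the NTRK3 group 69 of the 115 UMIs came from library 6, without which the log2 ratio of 2.04 was 1.25. The KIT log2 ratio was -0.80 without library 3 and 2.39 without library 6. CDH6 had 20 UMIs in the NTRK3 group, 10.5 CPM, 2.04-fold over the others (1.18 to 3.37), a call lost in 9 of 18 other settings, with a log2 ratio of 0.96 without library 2, 1.00 without library 3 and 0.91 without library 6.

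CDH19 and CDH5 are better known outside neurons. CDH19, a gene of the Schwann cell lineage, was highest where glial markers were, with 81.0 CPM in the TRPM8 group and 69.1 CPM in the PVALB group, against 28.5 to 45.3 CPM elsewhere. Within the TRPM8 group it stood at 42.1 CPM without the shallow cluster and 141 CPM in it. CDH5, the endothelial VE-cadherin, had 57 UMIs in all. Its 12 UMIs in the TRPM8 group gave 2.15-fold over the others (1.03 to 4.12), 7 of them in library 1 and 6 in the shallow cluster. That log2 ratio of 1.10 was 0.98 without library 3 and 0.82 without the shallow cluster. Endothelial markers summed to 88.9 CPM there, against 58.4 to 119 CPM in the other groups.

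CDH13, or T-cadherin, is anchored to the membrane by a lipid and lacks the tail that binds catenins. It had the largest ratio of any member in the KIT group, with 1272 CPM (1207 to 1341) there and at most 100 CPM in any other group, 17-fold over the others (15.8 to 18.4). KIT libraries 1, 3, 5 and 6 held 706, 923, 1321 and 1606 CPM. The highest library elsewhere was PVALB library 4 at 177 CPM, so the groups did not overlap. Among all genes CDH13 ranked among the 10 highest in clusters c5 and c21 of the KIT group, and first in c21. When nuclei were instead grouped one by one by their own marker UMIs, 44 nuclei fell to KIT, of which 3 were in the KIT clusters, and the log2 ratio was 0.64 in place of 4.09.

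**Figure D3:**
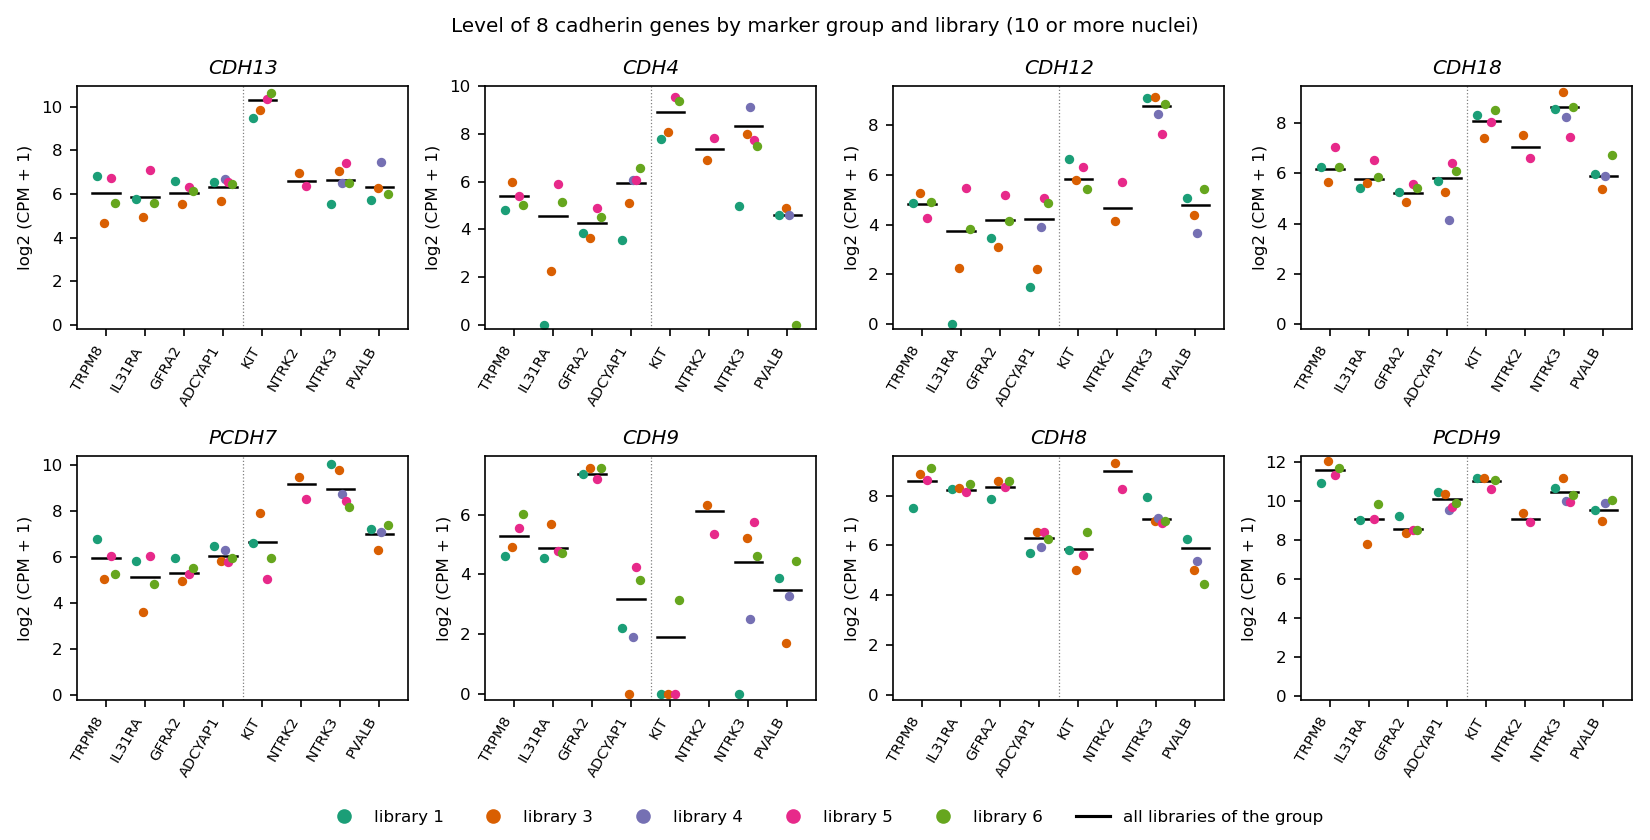
Level of 8 members by marker group, as log2 of CPM plus 1. Dots are single libraries with 10 or more nuclei of the group, and lines are all libraries of the group. The 4 KIT dots of CDH13 and the 5 NTRK3 dots of CDH12 lie above every dot of the other groups.

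The delta-1 protocadherins PCDH1, PCDH7 and PCDH9, which bind a protein phosphatase through their tails, had 3 different patterns. PCDH7 was a gene of the NTRK2 group (565 CPM, 4.98-fold, 4.40 to 5.63) and the NTRK3 group (491 CPM, 6.0-fold, 5.50 to 6.54). NTRK2 libraries 3 and 5 held 702 and 367 CPM, and NTRK3 libraries 1, 3, 4, 5 and 6 held 1044, 881, 416, 343 and 286 CPM. The pair of groups overlapped with each other and with no library of any other group, where the highest was KIT library 3 at 236 CPM.

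PCDH9 was highest in the TRPM8 group at 3106 CPM (3027 to 3187), 3.41-fold over the others (3.30 to 3.51). TRPM8 libraries 1, 3, 5 and 6 held 1929, 4308, 2558 and 3358 CPM. The KIT group followed at 2125 CPM and the NTRK3 group at 1414 CPM, and the GFRA2 group was lowest at 374 CPM, 3.48-fold below the others. The ungrouped nuclei stood at 2996 CPM (2800 to 3201), an interval that overlapped with that of the TRPM8 group, and 1 nucleus gave 24.1% of their UMIs. KIT libraries, at 1599 to 2323 CPM, and library 3 of the NTRK3 group, at 2294 CPM, overlapped with library 1 of the TRPM8 group. PCDH1 was highest in the IL31RA group at 63.8 CPM, where 1 nucleus gave 28.7% of the UMIs, and had 4 UMIs in the NTRK2 group, or 7.53 CPM and 0.19 of the level elsewhere (0.051 to 0.48). That log2 ratio of -2.41 was -1.63 without library 3 and -3.08 without library 6, and at resolution 2.0 it was -0.82.

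The delta-2 protocadherins PCDH10, PCDH17, PCDH18 and PCDH19, which bind the WAVE actin regulator, were sparser. PCDH10 was higher in the TRPM8 group (40.5 CPM, 2.28-fold, 1.75 to 2.95) and the ADCYAP1 group (35.2 CPM, 2.28-fold, 1.83 to 2.83). In the TRPM8 group 1 nucleus gave 26 of the 76 UMIs, and without library 2 the log2 ratio of 1.19 was 0.67, and 0.57 without the shallow cluster. With nuclei weighted equally the ADCYAP1 log2 ratio of 1.19 was 0.57. PCDH17 ran from 110 CPM in the ADCYAP1 group down to 20.7 CPM in the NTRK2 group, 3.97-fold below the others on 11 UMIs. The NTRK2 log2 ratio of -1.99 was -2.84 without library 5, but -0.88 at resolution 2.0 and -0.42 with nuclei grouped one by one. PCDH18, with 56 UMIs in all, had 13 in the KIT group (4.56-fold over the others, 2.24 to 8.68), 17 in the PVALB group (3.53-fold, 1.87 to 6.43) and 0 in the NTRK2 group. In the NTRK3 group it had 1 UMI, 0.15 of the level elsewhere (0.0037 to 0.87), and the log2 ratio of -2.74 was -2.14 without library 4. With nuclei weighted equally the NTRK3 log2 ratio was -0.66 and the PVALB log2 ratio of 1.82 was 0.80. PCDH19, linked to epilepsy in humans, had 16.9 CPM in the NTRK3 group (2.31-fold, 1.51 to 3.46) and 14.9 CPM in the TRPM8 group. Of its 32 UMIs in the NTRK3 group 18 came from library 3, and the log2 ratio of 1.21 was 0.34 without it.

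Of the giant cadherins, FAT4 was higher in the KIT group. Without library 3 it stood at 82.8 CPM there, 3.18-fold over the others (2.42 to 4.13), with 134, 63.6 and 89.1 CPM in libraries 1, 5 and 6. No library of another group exceeded 62.6 CPM. In the GFRA2 group it stood at 15.9 CPM without library 3, 0.49 of the level elsewhere (0.33 to 0.70). FAT1 without library 3 ran from 43.3 CPM in the TRPM8 group and 42.5 CPM in the PVALB group down to 18.3 CPM in the GFRA2 group. In the PVALB group 36 of the 64 FAT1 UMIs came from library 4 at 104 CPM, and without it the group stood at 24.1 CPM. DCHS2 was higher in the NTRK3 group at 41.1 CPM (3.25-fold, 2.46 to 4.25) and lower in the PVALB group at 3.07 CPM (5.70-fold, 2.58 to 15.7). The PVALB level rested on 6 UMIs, and its log2 ratio of -2.51 was -1.25 as the mean of ratios within libraries. DCHS2 libraries ran from 7.28 to 79.3 CPM within the NTRK3 group and overlapped with those of other groups.

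The planar polarity cadherins CELSR1, CELSR2 and CELSR3 had few differences past 2-fold. CELSR3, which guides axons in mice, ran from 28.1 to 43.3 CPM in 7 groups and stood at 13.8 CPM in the PVALB group, 2.70-fold below the others (1.84 to 4.14), and that log2 ratio of -1.43 was -0.98 without library 1. CELSR1 was 2.56-fold lower in the KIT group (1.16 to 7.06) on 6 UMIs, and that log2 ratio of -1.36 was -0.95 without library 5 and -2.09 without library 6. CELSR2 was highest in the PVALB group at 57.3 CPM and passed 2-fold in no group. CDH23, a protein of the hair cell tip link, ran from 7.53 to 18.5 CPM and passed 2-fold in no group.

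Of the clustered protocadherins nearly all UMIs fell on 2 rows. PCDHAC2 had 5178 UMIs and PCDHGA4 had 1970, whereas PCDHA11, PCDHB7 and PCDHGA6 had 1 each, PCDHGB5 had 4 and PCDHB1 had 9. Isoforms of the alpha cluster share their last exons, and so do those of the gamma cluster, so reads there cannot be assigned to single isoforms and these values are uncertain. PCDHAC2 ran from 413 CPM in the GFRA2 group, where 1 nucleus gave 24.4% of the UMIs, to 212 CPM in the NTRK3 group, and PCDHGA4 from 149 CPM in the TRPM8 group to 72.5 CPM in the GFRA2 group. Neither passed 2-fold in any group.

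Each group was also set against the other 7 together. In the TRPM8 group 5 of 32 members were higher (background 2.28%) and 6 lower (background 6.68%), CDH4 (40.5 against 108 CPM) and CDH12 (27.7 against 72.7 CPM) the lowest. With nuclei grouped one by one the CDH4 log2 ratio of -1.42 was -0.90 and the CDH12 log2 ratio of -1.39 was -0.77, and at resolution 0.5 CDH4 was at -0.25. As the mean of ratios within libraries CDH4 was at -0.91 and CDH12 at -0.97, both below 2-fold. In the GFRA2 group 2 were higher (background 3.45%) and 11 lower (background 9.01%), the most of any group, CDH4 and CDH20 being the lowest. FAT4, past 2-fold there only without library 3, is not among the 11. In the IL31RA group 0 were higher (background 2.62%) and 9 lower (background 9.65%), with a median log2 ratio of -0.58 beside -0.12 over all genes. CDH12 was lowest there, and next CDH4 at 22.5 against 117 CPM, with a log2 ratio of -2.37 that was -2.98 without library 5. In the ADCYAP1 group 1 was higher (background 2.8%) and 7 lower (background 9.07%), CDH9 and CDH12 (17.5 against 83.9 CPM) the lowest. The KIT group had 6 higher (background 4.78%) and 6 lower (background 9.72%).

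The NTRK2 group had 4 higher (background 4.92%) and 7 lower (background 15.1%). The NTRK3 group had 9 higher, 28.1% of the members against a background of 13.3%, and 5 lower against 19.6%, with PCDH1 at 15.8 against 42.0 CPM, a log2 ratio of -1.41 that was -0.64 with thinning. In the PVALB group 2 were higher (background 17.6%) and 9 lower (background 28.9%). There the members' lower share of 28.1% was near the background, and the median log2 ratio over all genes was -0.24. Over the 8 groups this made 29 higher and 60 lower pairs of member and group, and with the 5 less secure clusters left out 28 and 62. Of these, 14 of the higher and 21 of the lower pairs stayed past 2-fold under every other setting that gave a value at the same thresholds. Backgrounds over all genes were computed for each group in the main setting only. The pooled counts and the counts that stayed therefore have none beside them. The 14 were CDH4, CDH12, CDH18, CDH20, PCDH7 and DCHS2 in the NTRK3 group, CDH4, PCDH18 and FAT4 in the KIT group, CDH7 and PCDH7 in the NTRK2 group, CDH9 and CDH11 in the GFRA2 group, and PCDH9 in the TRPM8 group.

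Within the KIT group, cluster c17 stood apart. Its 20 nuclei, all from library 3, were led by DCC, the netrin receptor, and CDH20, and NTRK2 was nearly as raised in it as KIT (log2 ratios of 2.31 and 2.53). CDH20 stood at 851 CPM (627 to 1128) in c17, against 9.23 CPM in c5 and 9.76 CPM in c21. PCDH7 stood at 904 CPM in c17, against 71.6 and 45.6 CPM, and CDH10 at 408 CPM, against 20.8 and 37.4 CPM. In turn CDH13 stood at 53.2 CPM in c17, against 902 and 1645 CPM, CDH4 at 17.7 CPM, against 295 and 666 CPM, and CDH18 had 0 UMIs. Without c17 the KIT group was 17.9-fold over the others in CDH13 (16.6 to 19.4) and 6.92-fold in CDH4 (6.24 to 7.67).

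The GFRA2 group held a split that was seen in library 3 and again in libraries 5 and 6, which shared their clusters. In library 3 the nuclei lay in clusters c14 and c16, and in libraries 5 and 6 mostly in c25 and c20. The 32 nuclei of library 1 were not split and lay in cluster c3. Clusters c16 and c20 were both led by TMC3, LYPD1, SYNPR, GNA14 and LPAR3, and c14 and c25 by EFEMP1, LHCGR and GFRA2. CDH9 was lower in the first pair, at 98.2 CPM (62.2 to 147) in c16 against 257 CPM (203 to 322) in c14, and 65.6 CPM (47.5 to 88.4) in c20 against 245 CPM (213 to 280) in c25. CDH7 went the other way, at 42.7 CPM (28.4 to 61.7) in c20 against 9.20 CPM (3.97 to 18.1) in c25. In library 3 it had 9 UMIs in c16 against 2 in c14, and those intervals (17.6 to 72.9 and 0.819 to 24.4 CPM) overlapped. CDH9 was itself among the 10 leading genes of c14 and c25, and the split was noticed in these data.

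**Figure D4:**
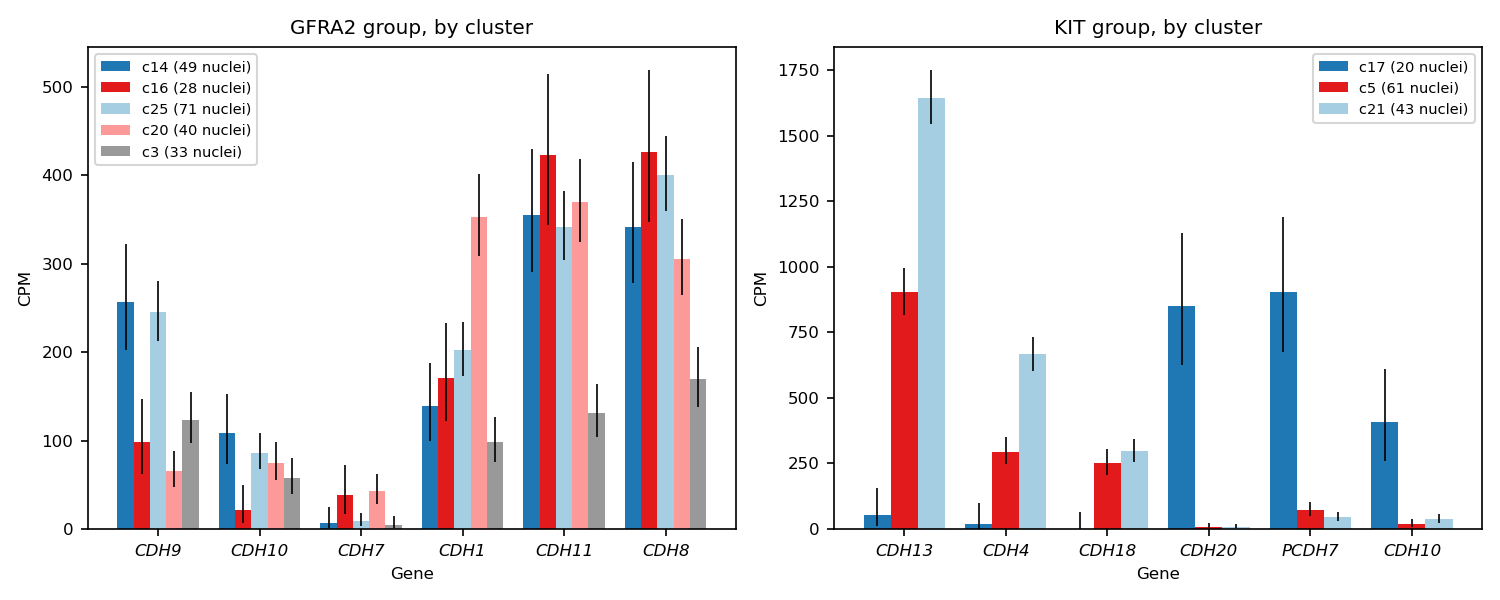
CPM of 6 members in the clusters of the GFRA2 group (left) and of the KIT group (right), with 95% counting intervals. CDH9 is lower and CDH7 higher in c16 and c20 than in c14 and c25. In c17, CDH20 and PCDH7 exceed 800 CPM while CDH13 is at 53.2 CPM.

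Members with like patterns over the 8 groups were listed by Pearson's r of log2 CPM plus 10, as a description over groups that share libraries. The closest pairs were CDH4 and CDH18 (r = 0.943), CDH9 and CDH11 (0.923), CDH23 and PCDH19 (0.915), and CDH12 and CDH18 (0.855). FAT4 was most like CDH13 (0.817), with FAT4 including the zeros of library 3.

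Neighbouring cadherin genes did not all share a group. In RefSeq on Sscrofa11.1, chromosome 16 carries CDH18 (8090253 to 9117046), CDH12 (9985759 to 10975489), CDH10 (12094687 to 12277672), CDH9 (13938711 to 14076498) and CDH6 (17531862 to 17660081). The first pair and CDH6 were highest in the NTRK3 group, CDH10 in the TRPM8 group and CDH9 in the GFRA2 group. On chromosome 1, CDH19 (155669361 to 155758550), CDH7 (156295885 to 156436375) and CDH20 (159817091 to 160024985) were highest in the TRPM8, NTRK2 and NTRK3 groups. Without the shallow cluster CDH19 stood at 42.1 CPM in the TRPM8 group, below the 69.1 CPM of the PVALB group.

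Proteins that work with cadherins were counted the same way, beside the backgrounds of 4.18% higher and 7.87% lower. Of 12 catenins and junction partners, 0 were higher and 1 lower in C-fibre groups, PKP4, a p120 family catenin, at 78.1 against 160 CPM in A-fibre groups, or 8.33% of the list. Of 15 planar polarity and Fat-Dachsous partners 11 had enough UMIs. The Wnt receptor FZD3, needed for axon guidance in mice, was higher at 228 against 82.2 CPM, and PRICKLE1 lower at 62.4 against 142 CPM, each 9.09% of the 11. Of 10 genes of cadherin shedding and actin linkage 9 were compared and 0 passed 2-fold in either direction. In the NTRK3 group PKP4 (285 against 81.7 CPM) was higher and JUP, or plakoglobin, lower (19.5 against 57.4 CPM). In the PVALB group 4 of the 12 catenins and junction partners (33.3%) and 4 of the 11 polarity partners (36.4%) were lower, near the background of 28.9%. Among them CTNNA2, the neuronal alpha-catenin, stood at 416 CPM against 2329 CPM elsewhere, and VANGL1 at 1.54 against 16.4 CPM.

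The members with 1 to 49 UMIs were too sparse to compare. They were CDH15, CDH17, CDH22, CDH24, CDHR1, CDHR2, CDHR3, CDHR5, DCHS1, FAT2, PCDH8, PCDH12, PCDH20 and the 5 clustered isoforms given above. CDHR3 (44 UMIs) and CDH17 (41) had the most. For a member with none, a count of 0 over the table allows up to 0.174 CPM, at 3 counts of all UMIs.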

How the data were processed

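The table holds raw UMI counts per gene and nucleus as the authors deposited them, with reads processed by Cell Ranger 6.0.1 and Seurat on Sscrofa11.1 per the submitters' processing notes. Filters on nuclei and doublets are not given in the sources used here, and no doublet caller was run. Of the gene rows, 14012 carry only an Ensembl identifier and 773 of these were named by a table of gene names.

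Counts were scaled to 10000 per nucleus and logged in scanpy 1.11.5 (Python 3.11.15). Of 2000 variable genes 11 were members and were left out. The other 1989 gave 30 principal components, 15 neighbours and Leiden clusters at resolution 1.0. A cluster took the marker with the highest log2 ratio (10 CPM added) over the other nuclei of its libraries, if at least 1, a threshold set after clusters had been seen. Since members and markers come from the same nuclei, group differences are descriptions.

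UMIs were summed per group. CPM has exact Poisson intervals and ratios exact conditional binomial intervals, at 95%. A member was called higher or lower at 2-fold with at least 50 UMIs over both sides, with 3 UMIs put in place of none on a side. Library values are given for at least 10 nuclei, and ratios within libraries need at least 10 UMIs, with 0.5 added. Total UMIs per library ran from 760816 to 4910023. Named members are those at least 2-fold over the median of groups, the 10 largest C-fibre to A-fibre ratios each way, and the 3 highest and 2 lowest in each group whose interval excludes 1. Members, gene lists and alternatives were chosen with earlier results of these data known. The pairs of GFRA2 and KIT clusters were chosen after their values were seen.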

Additional observations from a re-analysis of the deposited data

How the results depend on the processing

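For 42 named ratios, 842 values under other settings were computed: 658 stayed within the 95% counting interval of the reported ratio, 183 moved outside it in the same direction and 1 reversed. The reversed one was PCDH1 in the NTRK2 group, at a log2 ratio of 0.138 with nuclei thinned to 1000 UMIs. With thinning, too, 0 UMIs on a side are set to the floor of 3, so this value need not be a measured level. The cause was not tested. Members higher in the C-fibre groups numbered 1, but 2 at resolution 2.0, with thinning, with at least 10 UMIs, without the KIT group, and without the clusters led by other genes, and 0 with nuclei weighted equally. Members lower there numbered 8, but 4 with nuclei grouped one by one, 5 with thinning and 5 at 3-fold. With nuclei grouped one by one, CDH7, CDH20 and PCDH18 had too few UMIs for a value, and CDH13 fell below 2-fold. With thinning, CDH7 and PCDH18 had too few UMIs, and CDH20 fell below 2-fold. Member and group pairs numbered 29 higher and 60 lower. Higher pairs became 19 with nuclei grouped one by one, 19 with thinning, 54 with at least 10 UMIs and 15 at 3-fold, and lower pairs 28 one by one and 31 at 3-fold. With nuclei grouped one by one or thinned, some pairs had too few UMIs for a value. Leaving out each library in turn gave 1 to 2 and 6 to 8 members, 2 of them higher without library 3, and 26 to 36 and 57 to 63 pairs. Without library 1, 3 or 6, PCDH18 had too few UMIs for a value. Another 6 settings were added after seeing the data: without the KIT group, the shallow cluster, the deepest nucleus of each group, cluster c17, the clusters led by other genes, or rows at 0 in a whole library. No paired analysis was possible because the table does not tie nuclei to pigs and no test was run. Depth limits members under 50 UMIs, and the NTRK2 group, of 73 nuclei, most.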
